A study of Mus musculus with 4 samples.

Results

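The miR-130 and miR-301 family was described in mouse embryonic stem cells (ESCs) that have or lack DNA methyltransferases. Its members were chosen by name, as every probe for mmu-miR-130a, mmu-miR-130b, mmu-miR-301a or mmu-miR-301b in either arm, which gave 4 of the 566 mouse miRNA probes in the data. The rule uses names and no threshold on a measured value. The WT group is the R1 line of mouse ESCs, and the TKO group is R1 ESCs in which Dnmt1, Dnmt3a and Dnmt3b are all knocked out, with 2 biological replicates of each. Both were grown on gelatin in serum with leukemia inhibitory factor, and the labels add that all cells were differentiated for 4 days before total RNA was isolated. The sources used here name 1 TKO line and no rescued line, so the effects of genotype and of the line cannot be told apart. Mature miRNAs were counted with the NanoString nCounter assay, in which a barcoded probe reports each miRNA molecule. In bulk RNA of this kind, fewer cells that express a miRNA and less of it per cell cannot be told apart.

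miRNAs are cut from a hairpin by Drosha and Dicer, and 1 strand is loaded into an Argonaute protein. They find target mRNAs mainly through the seed, the bases after the first at the 5′ end, so miRNAs with the same seed form a family with overlapping targets. The family is known for acting on the lipid regulator PPARγ and on TGF-β signalling, miR-130a for targeting HOXA5 in endothelial cells and miR-301a for targeting the NF-κB repressing factor NKRF. Mouse ESCs are known for very high levels of other miRNAs with related seeds, above all those of the miR-290 cluster.

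The mature sequences show what makes the members a family and how far they differ. The probe names carry no arm and were matched to the -3p arm, which holds the family seed. Bases 2 to 8, the seed, are in capitals, and for miR-301b the whole hairpin is shown with the same 7 letters in capitals, since miR-301b-3p is named only.
miR-130a-3p: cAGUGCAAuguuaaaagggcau
miR-130b-3p: cAGUGCAAugaugaaagggcau
miR-301a-3p: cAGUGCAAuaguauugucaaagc
Mir301b hairpin: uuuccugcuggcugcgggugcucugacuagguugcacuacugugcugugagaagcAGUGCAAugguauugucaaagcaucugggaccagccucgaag
The seed AGUGCAA was the same in all 3 mature sequences, and these 7 letters occurred once in each of the 4 hairpins. A target mRNA pairs with it through UUGCACU, its reverse complement. Counted from 1 at the 5′ end, miR-130b-3p differs from miR-130a-3p at 2 of 22 bases, U11A and A13G, both outside the seed. miR-301a-3p differs from miR-130a-3p at 10 of the 22 bases they share and from miR-130b-3p at 11 of 22. The RefSeq sequences used here list 7 mouse mature miRNAs with this seed, without miR-301b-3p, whose probe is a member. Of these, 3 are measured here, and miR-130c, miR-721, miR-6341 and miR-6389 were not analysed here. How far the assay separates miR-130a from miR-130b is not given in the sources used here.

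The 4 genes lie at 3 places in the mouse genome (RefSeq, GRCm38.p6). Mir130b (chr16:17124061-17124142) and Mir301b (chr16:17124400-17124496) are neighbours, both on the minus strand, with 257 bases between them. Both lie within the span of the protein-coding gene 2610318N02Rik (chr16:17113398-17125202), 1060 and 706 bases from its start. The gene of miR-301a, listed as Mir301, lies on the plus strand (chr11:87113004-87113089), within the span of Ska2 (chr11:87109261-87122974), a gene for a protein of the spindle and kinetochore. Mir130a lies on the minus strand (chr2:84741115-84741178) and within no other gene of the table. Its nearest neighbours there are Gm19426, 986 bases away, and Ypel4, 2459 bases away. Only gene spans were used, and whether a hairpin is exonic or intronic is not given.

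The study asked how CpG methylation around the hairpins relates to miRNA levels, so the CpG dinucleotides of the members, the sites that the DNMTs methylate, are shown. Only CpG within the hairpins are counted here, whereas the study set its methylated groups by the flanks outside them. In the hairpins, written as RNA, each CG is in capitals.
Mir130a: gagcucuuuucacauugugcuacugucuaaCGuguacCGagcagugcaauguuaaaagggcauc
Mir130b: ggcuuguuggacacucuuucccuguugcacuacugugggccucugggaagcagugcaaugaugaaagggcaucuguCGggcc
Mir301: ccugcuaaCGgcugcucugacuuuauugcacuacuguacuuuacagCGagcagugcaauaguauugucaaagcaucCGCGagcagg
Mir301b: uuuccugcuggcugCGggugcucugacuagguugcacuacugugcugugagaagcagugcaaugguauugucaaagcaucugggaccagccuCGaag
The hairpin of miR-301a held 4 CG, those of miR-130a and miR-301b held 2 each and that of miR-130b held 1. Of 1005 mouse hairpins in RefSeq, 66.5% held at least 1 CG, with a median of 1, and 22.9% held at least 3. The study sorted mouse precursors by their methylation in ESCs. It placed miR-130b in the class methylated upstream of the hairpin, miR-301b in the flat class and miR-130a in the depleted class. By its methods the depleted class has no methylation in the hairpin or its flanks. The flat class holds the remaining precursors, which the paper elsewhere describes as similarly methylated along the whole locus. The paper pools the flat and depleted classes as unmethylated, and counts the upstream class as methylated. miR-301a is not in the study's list. The neighbours Mir130b and Mir301b were thus placed in different classes.

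Of the members, only miR-130b was called lower below, and the difference of its neighbour miR-301b is not resolved in size. The region around the start of 2610318N02Rik, the gene that spans both Mir130b and Mir301b, is therefore shown. It covers 250 bases before to 50 after the start on the minus strand (chr16:17125153-17125452, RefSeq, GRCm38.p6), with each CG in capitals.
2610318N02Rik: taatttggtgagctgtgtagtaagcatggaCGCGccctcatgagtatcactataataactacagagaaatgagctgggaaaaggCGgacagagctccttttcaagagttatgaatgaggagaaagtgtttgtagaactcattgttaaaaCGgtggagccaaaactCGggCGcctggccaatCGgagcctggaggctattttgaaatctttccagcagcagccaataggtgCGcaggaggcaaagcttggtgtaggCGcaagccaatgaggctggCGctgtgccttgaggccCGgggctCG
It held 12 CG, which read the same on both strands, and 39.6% of the 32851 promoters of the same length held at least as many, with a median of 7. The same window of Ska2, which spans the miR-301a gene, held 17 CG, a number that 31.4% of promoters reached. These counts describe sequence and say nothing about methylation in these samples.

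The deposited log2 values were turned back to normalized counts. Each sample's values were whole multiples of 1 factor, and dividing by it gave between 511661 and 613666 recovered counts per sample. Mouse cells should lack the viral miRNAs that 33 probes target. These probes averaged 31.5 normalized counts, and 69.2, which is 2 SD above that, was taken as background. Over all mouse probes, Pearson's r of the log2 values was 0.986 between the WT and 0.985 between the TKO replicates. A probe is named called where its difference passed the test given below. The labelled cell type was checked against ESC miRNAs. The 9 probes for miR-290, miR-291a and miR-292 to miR-295 summed to 338086 and 332078 normalized counts for WT, against 271468 and 295001 for TKO cells. Of these 9 probes, 8 passed background and none was called. The probes miR-291b-3p and miR-291b-5p, of the same cluster but outside this list, averaged 16.4 and 18.9 normalized counts, under background, and were not called. Among the markers of other cell types, some probes were called and most lists held few or none. The 5 probes for miR-302a to d and miR-367, known from primed pluripotent cells, summed to 373 and 349 for WT, against 1649 and 2021 for TKO samples, with 3 above background and 4 called higher. The sums of 3 neural probes were 642 and 566 against 249 and 241, with 2 above background and 1, miR-124, called lower. The sums of 5 fibroblast probes (3 above background, none called) were 525 and 481 against 423 and 422. Those of 5 blood probes (3 above background) were 1379 and 1277 against 1450 and 1621. These were higher in TKO samples, although the 1 blood probe called was lower. None of the 3 muscle probes or the liver probe passed background. The part of these markers in the family's values was not tested.

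The mean level of all 4 members was lower without the DNMTs, and 1 of them, miR-130b, was called lower after adjustment over all probes. The difference of miR-130b was larger than those of miR-130a and miR-301a. That of its neighbour miR-301b is not resolved in size, so no order is given for it. Differences below subtract WT from TKO means of log2(normalized count + 1). A probe was called when the p of limma, a linear model that shares the estimate of spread among probes, adjusted by Benjamini-Hochberg over the 566 mouse probes, was under 0.05. In this comparison 8.48% of mouse probes were called, 4.24% lower and 4.24% higher, and of those above background 9.24% were called lower. Scaling every sample to the same sum gave 17 probes called lower and 27 higher, in place of 24 and 24. Counts of different probes carry each probe's own capture efficiency, so levels are compared within a probe and not between members.

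miR-130b, which differs from miR-130a by the 2 bases given above, was the member called lower. WT cells gave 1235 and 1213 normalized counts in replicates 1 and 2, and TKO cells gave 473 and 480.3. The groups lay far apart and the replicates of each close together, with exact Poisson 95% intervals of 1147 to 1308 over the WT and 432 to 527 over the TKO samples (counting error only). The mean went from 1224 ± 15.4 to 477 ± 4.86 (SD, n = 2 each), so that TKO cells held 39.0% of the WT level, a 2.57-fold fall. The log2 difference was -1.36 (SE 0.14, 95% interval -1.74 to -0.98, limma adjusted p = 0.0143). It was the 9th lowest of the 566 differences, and the 7th lowest of the 238 probes above background. With any 1 of the 4 samples left out the difference stayed between -1.37 and -1.35, but limma did not call it with 3 samples (adjusted p from 0.0911 to 0.121).

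miR-301b, whose gene lies 257 bases from Mir130b on the same strand, was at the edge of detection. Its normalized counts were 93.1 and 91.3 for WT, against 49.4 and 31.1 for TKO replicates 1 and 2. Both WT values passed the background of 69.2 and neither TKO value did, the second lying at the mean of the viral probes. The Poisson intervals were 36.7 to 65.1 and 20.8 to 44.6 in the TKO samples, from 50 and 29 recovered counts. The means were 92.2 ± 1.27 and 40.25 ± 12.95 (SD, n = 2 each), with a log2 difference of -1.21 (SE 0.26, 95% interval -1.91 to -0.52, limma adjusted p = 0.0710), which was not called. Since the TKO values do not stand out from the viral probes, the size of this difference is not resolved. It was -1.54 without TKO replicate 1 and -0.89 without TKO replicate 2, so single samples moved it more than they moved miR-130b. Limma with an intensity trend (adjusted p = 0.0301) and voom on the recovered counts (adjusted p = 0.0226) called it, and the range over all alternatives was 0.0121 to 0.534.

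miR-130a, the member best known from blood vessel growth, had a smaller difference than miR-130b. The probe read 2751 and 2656.5 normalized counts with the DNMTs present, and 1861 and 2173 in their absence. Both TKO values lay below both WT values, yet the TKO replicates differed from each other by more than the WT replicates did. The Poisson intervals of the TKO replicates, 1778 to 1947 and 2079 to 2270, did not overlap. The means were 2704 ± 67.1 and 2017 ± 221 (SD, n = 2 each), so that the TKO mean was 74.6% of the WT mean. The log2 difference was -0.43 (SE 0.16, 95% interval -0.86 to 0.0049, limma adjusted p = 0.212) and was not called. Limma with an intensity trend (adjusted p = 0.0342) and voom (adjusted p = 0.0299) called it, over a range of 0.0299 to 0.564 for all alternatives.

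miR-301a, whose gene lies within Ska2, had values much like those of miR-130a in relative terms. WT samples had 787 and 747 normalized counts, and TKO samples 524 and 635. The groups did not overlap, and TKO replicate 2 again lay above TKO replicate 1. The means were 767 ± 28.0 and 579 ± 78.4 (SD, n = 2 each), and the TKO mean was 75.5% of the WT mean. The log2 difference was -0.41 (SE 0.17, 95% interval -0.87 to 0.048, limma adjusted p = 0.238), and no alternative called it either (adjusted p from 0.0714 to 0.590).

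**Figure D1:**
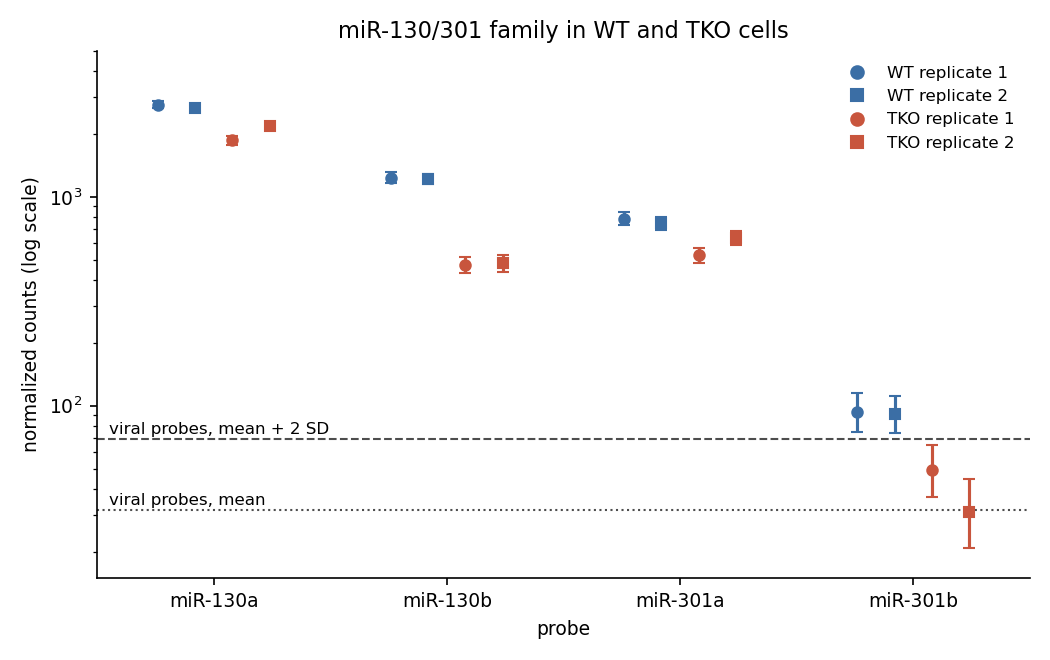
Normalized counts (log axis) of the 4 probes in the 2 WT and 2 TKO samples, with exact Poisson 95% intervals as bars (hidden by the marker where smaller) and the mean and mean plus 2 SD of 33 viral probes as lines. For each probe both TKO values lie below both WT values, and the TKO values of miR-301b lie under the upper line at 69.2.

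Both TKO values lay below both WT values for all 4 members. Over all mouse probes this held for 36% (204 of 566), and over the 238 probes above background for 52.1%, so a count of 4 is read against a table in which this is common. Likewise the mean was lower without the DNMTs for 61.7% of mouse probes and 71.8% of those above background. The median log2 difference of the 4 members was -0.82, beside -0.12 over all mouse probes and -0.20 over those above background. The members' median lies between miR-130a at -0.43 and miR-301b at -1.21, and the latter is not resolved in size. Of the 3 members above background, miR-130b was at -1.36, miR-130a at -0.43 and miR-301a at -0.41. At an unadjusted limma p under 0.05, 2 members were lower, against 15.4% of all mouse probes. Summed over the 4 probes, the family gave 4866 and 4708 normalized counts for WT but 2908 and 3319 for TKO samples. That was 0.827% and 0.791% of the mouse signal in WT and 0.576% in both TKO samples. The sum adds probes that each carry their own capture efficiency. Its largest part is miR-130a, with 2751 normalized counts in WT replicate 1, which was not called.

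**Figure D2:**
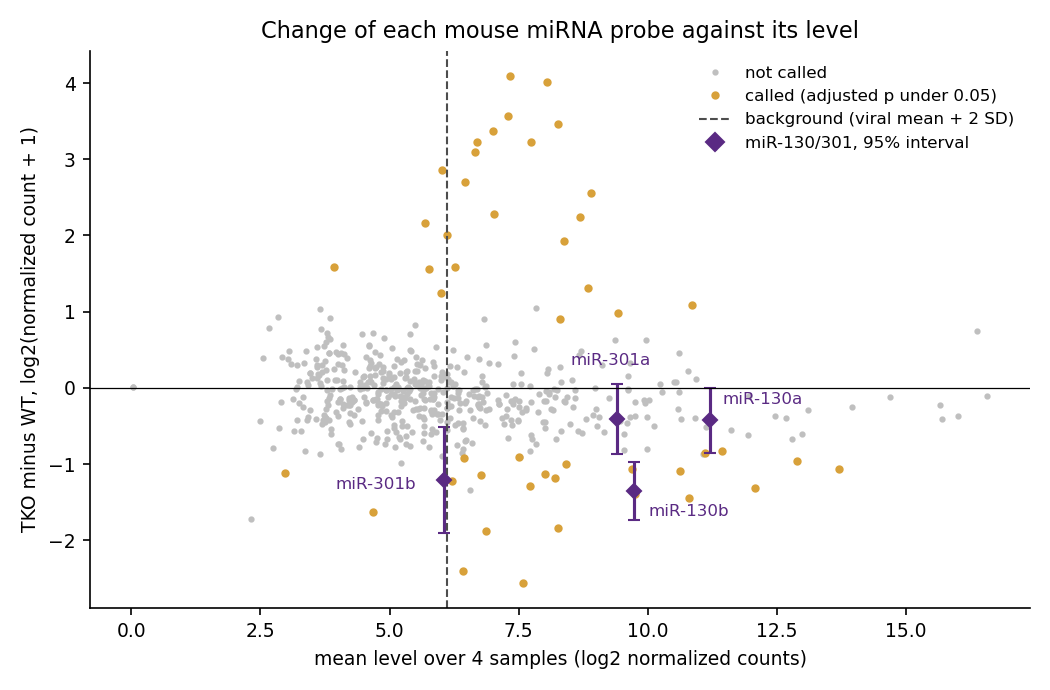
Log2 difference TKO minus WT of each of the 566 mouse probes (points) against its mean level over the 4 samples, with the family as diamonds with limma's 95% intervals. miR-130b lies among the called lower probes at -1.36, miR-130a and miR-301a lie at -0.43 and -0.41 with intervals that reach 0, and miR-301b lies at the background line.

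The scaling of the samples moves every difference by the same amount. The median over all mouse probes was -0.12 as deposited and 0.0089 with each sample divided by its sum. Relative to that median, miR-130b was at -1.24 as deposited and -1.23 under sum scaling, miR-301b at -1.09 under both, miR-130a at -0.30 under both and miR-301a at -0.29 and -0.28. All 4 members were lower under every scaling tried, and in all 15 fits that hold all 4.

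Ratios between members within a sample do not depend on the scaling and show whether the members moved by the same amount. The log2 ratio of miR-130a to miR-130b was 1.16 and 1.13 for WT, against 1.97 and 2.18 for TKO samples. It was thus higher in both TKO samples, by 0.93 on average, which is more than either group's spread (0.025 in WT and 0.20 in TKO). The log2 ratio of miR-130b to miR-301a moved by -0.95, from 0.65 and 0.70 to -0.15 and -0.40. By contrast, the log2 ratio of miR-130a to miR-301a was 1.81 and 1.83 for WT, against 1.83 and 1.77 for TKO samples, and the groups overlapped. These miRNAs come from different chromosomes, and their ratio moved by -0.017. For the neighbours miR-130b and miR-301b the log2 ratio was 3.72 for both WT samples, against 3.23 and 3.91 for TKO samples. The TKO values lay on either side of the WT values, and the mean difference of -0.15 was smaller than the TKO spread of 0.67 (exact permutation test over samples, two-sided, p = 1.00). Of the 6 pairs, 4 had groups that did not overlap, each at p = 0.333 in the exact permutation test (adjusted over the 6 pairs, 0.5), the smallest p that 2 against 2 samples allow. Among these 4, the ratios of miR-130a and miR-301a to miR-301b rest on its TKO values under background. They moved by 0.79 and 0.80, less than their TKO spreads of 0.88 and 0.93. How often pairs of other probes do not overlap was not counted. The pairs that overlapped are miR-130a with miR-301a and miR-130b with miR-301b. No order is given within either of these pairs. Both ratios rest on 2 against 2 samples, and that of miR-130b to miR-301b also on TKO values under background. Its mean difference was 2.27 with background subtracted and 0.19 without TKO replicate 1, so whether these neighbours moved by the same amount is not resolved. Among the 3 members above background, the difference of miR-130b was larger than those of miR-130a and miR-301a in every setting tried.

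**Figure D3:**
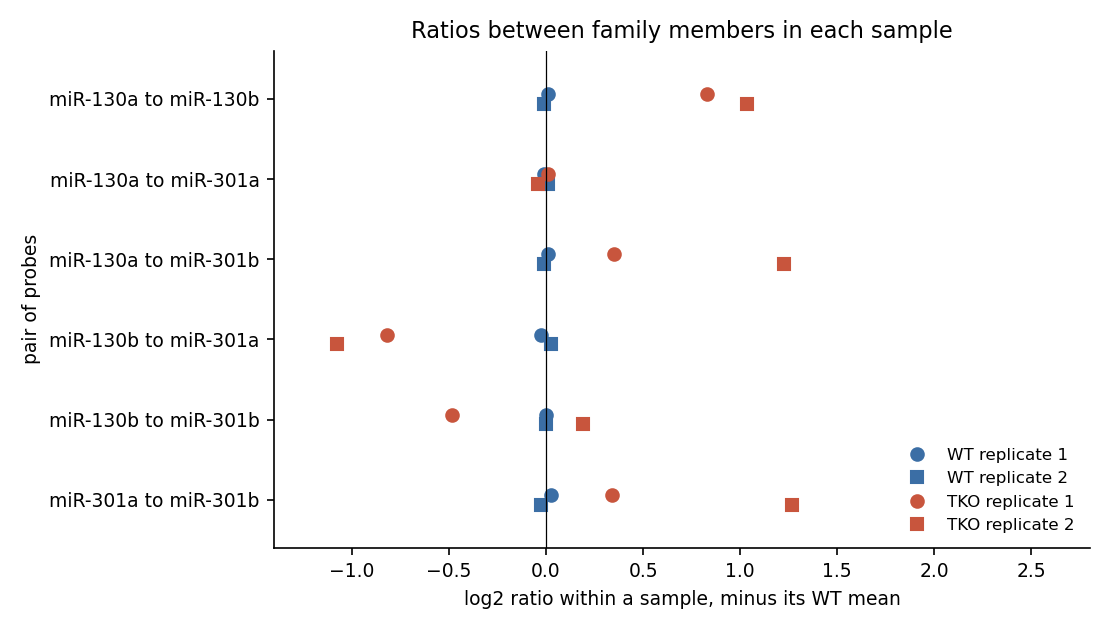
Log2 ratio of each pair of probes within a sample, minus the mean of that ratio in WT cells, for the 2 WT and 2 TKO samples. The ratio of miR-130a to miR-301a stays near 0 in all 4 samples, the TKO values of miR-130b to miR-301b lie on either side of 0, and the TKO values of the 4 remaining pairs lie on 1 side of both WT values.

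Among the classes of precursors that the study set by methylation, miR-130b was 1 of 6 probes called lower among 76 in the upstream class, whose median difference was -0.12 and in which 2 were called higher. None of the 28 probes of the depleted class, with miR-130a among them, was called lower at an adjusted limma p under 0.05, and 6 were called higher. The median of that class was -0.00035, and 14 of its probes were lower. The flat class, with miR-301b among 231 probes, had a median of -0.11, with 8 probes called lower and 10 called higher. Over all mouse probes 4.24% were called in each direction. The 3 listed members, each in a different class, all had lower means without the DNMTs.

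Probes with related seeds were set beside the family. Of the 566 mouse probes, 442 matched a RefSeq mature miRNA by name, where a name without an arm was matched to either. Besides the 3 members matched here, 3 probes hold CAGUGCA in their bases 1 to 9, those for miR-148a, miR-148b and miR-152, which are known for targeting DNMT mRNAs and carry these letters 1 base further from the 5′ end. Their log2 differences were 0.46 for miR-148a, -0.31 for miR-148b and 0.90 for miR-152, and miR-152 was called higher (limma adjusted p = 0.0434). The shorter core AGUGC, searched in the same bases, was held by 20 probes other than the members, with a median of -0.059 and a range from -1.44 to 2.25. Of these, 11 were lower and 9 higher, with 4 called lower and 3 called higher. The list holds only probes whose mature arm with the core was matched by name, so other probes that carry it may be missing. miR-302a, named after its value was seen, was matched by its other arm alone, and its hairpin in RefSeq holds AGUGC. It is not among them and was called higher at a log2 difference of 3.46 (limma adjusted p = 0.00423). So the listed probes that share the core with the family were found on both sides of 0.

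For each member, the 2 other probes above background with the most similar values were named by Euclidean distance over the 4 samples, on log2 values centred on their mean. For miR-130b these were the joint probe for miR-106a and miR-17 (distance 0.090) and miR-106b (0.091), which were called lower at log2 differences of -1.31 and -1.44. Both carry the AGUGC core and come from the clusters of the miR-17 family, known for acting on the cell cycle. The normalized counts of miR-106b were 2576 and 2624 for WT, against 949 and 965 for TKO samples. For miR-130a they were the joint probe for miR-297a, miR-466f and miR-669b (0.0065) and miR-195 (0.042), and miR-301a lay at 0.044. For miR-301a they were the same joint probe (0.041) and miR-130a (0.044). For miR-301b they were miR-361 (0.24) and miR-429 (0.26), both called lower, while miR-130b lay at 0.50. The distances describe 4 samples, which fall into 2 groups, so that probes with a similar difference are near each other by construction.

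**Figure D4:**
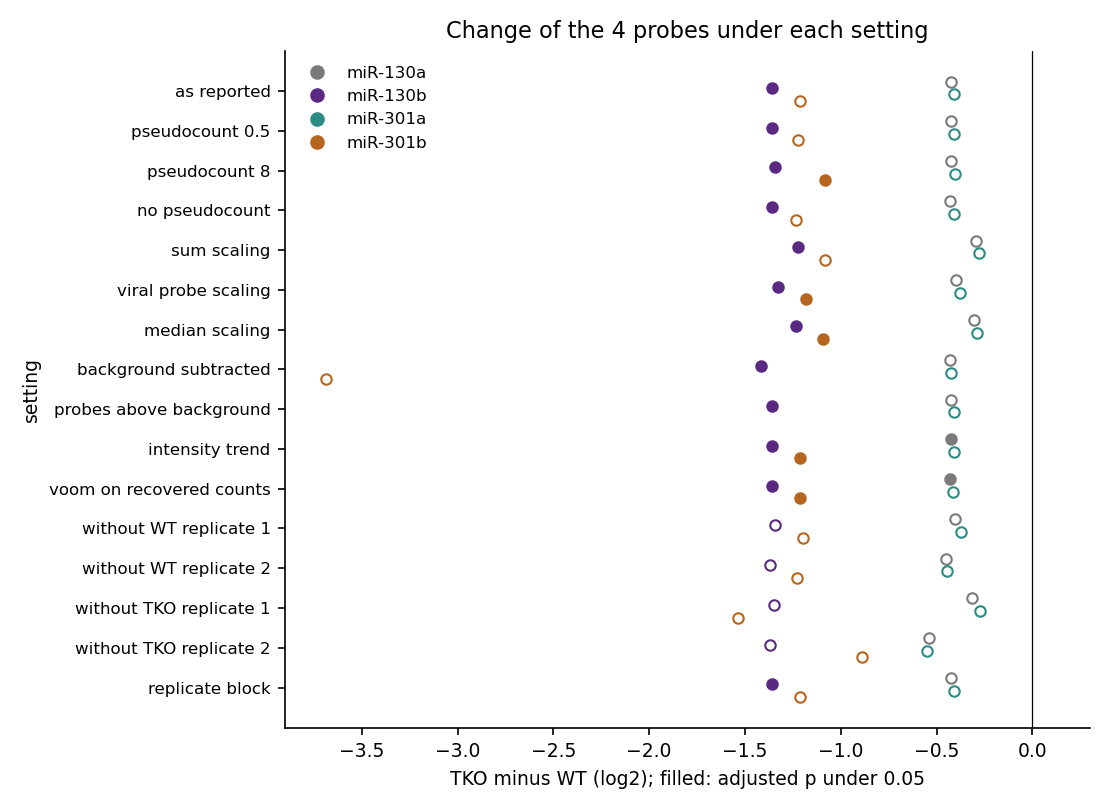
Log2 difference TKO minus WT of each member as reported and under 15 alternative settings (14 for miR-301b, which is not among the probes above background), filled where limma's adjusted p was under 0.05. All points lie below 0, miR-130b is filled except where a sample is left out, and miR-301b moves most, to -3.69 when background is subtracted.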

How the data were processed

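Mature miRNAs were measured in 2 WT and 2 TKO samples, grouped by the GEO labels. The values deposited by the authors are log2 of NanoString counts that nSolver had normalized. The version, the scaling probes and the handling of background are not given in the sources used here. The log2 values were turned to normalized counts, and whole counts were recovered as multiples of 1 factor per sample, with 100% of values whole within 0.05. A pseudocount of 1 was added before log2. Differences were tested with lmFit and eBayes of limma 3.58.1 in R 4.3.3 over all mouse probes, with Benjamini-Hochberg adjustment. The fit was also run on simulated counts with the same dispersion for all probes, which does not show its error rate on these data. Ratios between members were tested by exact permutation over samples, two-sided. Intervals are exact Poisson intervals at 95% and cover counting error only. Background was set from the viral probes, at 2 SD above their mean. Replicates were not blocked.

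The probes named are those of the 4 members, those with the same seed and the 2 nearest in pattern to each member, and beside them markers of cell types and relatives by core. miR-302a and miR-124 were singled out after their values were seen. The rule for the members uses names, but the members and lists were chosen with earlier results of these data known. Probes were matched to RefSeq miRNAs by name, and precursor classes to the study's list. Alternatives covered the pseudocount, scaling, background, low values, limma with a trend or voom, each sample left out and the replicate block. Python 3.11.15, pandas 2.3.3, numpy 2.4.6, scipy 1.17.1 and matplotlib 3.10.9 were used. Other data of the study were not analysed here.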

Additional observations from a re-analysis of the deposited data

How the results depend on the processing

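The difference was negative under all 15 alternatives for miR-130a, miR-130b and miR-301a, and under the 14 that include miR-301b for that probe, which is not among the probes above background. miR-130b was called under 11 of 15 alternatives, the exceptions being the fits without 1 sample (-1.37 to -1.35). miR-130a was called with an intensity trend and with voom, at -0.43 in each. miR-301b was called with a pseudocount of 8 (-1.08), viral probe scaling (-1.18), median scaling (-1.09), an intensity trend and voom (-1.21 in each). The number of members called was 1 as reported, 2 with a pseudocount of 8, viral probe scaling or median scaling, 3 with an intensity trend or voom, and 0 without any 1 sample, where limma gave 2 members an unadjusted p under 0.05. The number of mouse probes called was 48 as reported, 74 when only probes above background were tested, 84 with an intensity trend, 85 with voom and between 0 and 14 without 1 sample. It was 0 without TKO replicate 1 (75 lower and 39 higher at an unadjusted limma p under 0.05) or TKO replicate 2 (64 and 37). When background was subtracted, miR-301b was at -3.69 because its value in TKO replicate 2 was set to the minimum of 1. The log2 ratio of miR-130b to miR-301b, -0.15 as reported, turned to 2.27 there for the same reason. It was between -0.48 and 0.19 without 1 sample, positive without TKO replicate 1. Levels near the viral probes limit what can be said of miR-301b.

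The replicate numbers are shared by WT and TKO samples, but no label ties them to a batch. With the replicate number as a block, limma called 30 mouse probes and 1 member, miR-130b at -1.36 (adjusted p = 0.0378), while miR-130a (-0.43), miR-301a (-0.41) and miR-301b (-1.21) were not called. The ratio of miR-130b to miR-301b was -0.15 with this pairing. Deviations of same-numbered samples correlated at -0.094 over all mouse probes and -0.24 over those above background. With the numbers crossed, an alternative chosen after seeing the data, limma called 64 mouse probes and 2 members.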
